A study of Mus musculus with 12 samples.

Results

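The miR-29 family of the mouse consists of the mature miRNAs miR-29a, miR-29b and miR-29c. It was followed here through granulopoiesis, the formation of granulocytes in the bone marrow. The members are the 3 assays of the deposited table that could be given these names, out of 269 named assays and 593 assays in all, and each was read in all 12 samples. miRNA expression was measured by TaqMan low-density array (TLDA) RT-qPCR, in which each miRNA has its own well on 1 of 2 array cards, A and B, and all 3 members lie on card A. The readout is the cycle threshold (CT), the cycle at which the product crosses a fixed level, and it falls as the amount of template rises, by 1 cycle for each 2-fold where amplification is fully efficient.

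The samples came from bone marrow of C57BL/6 mice and were sorted by FACS into 4 populations in order of maturation. These were LSK cells (stem and progenitor cells, Lin- Sca1+ cKit+), promyelocytes, myelocytes and granulocytes. From each population RNA was taken from whole cells, from the cytoplasm and from the nucleus, the fractions being separated with the PARIS kit, and 100 ng of RNA was reverse transcribed. No treatment or engineered allele is named for any sample, and the age and number of mice behind a sample are not given in the sources used here. There was 1 sample per stage and fraction and 1 well per assay, so no difference between stages or fractions given here has a replicate check, and no test was made.

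The family is named for a shared seed, the bases near the 5′ end through which a miRNA recognises its targets. Its well known targets include the DNA methyltransferases Dnmt3a and Dnmt3b, the survival factor Mcl1, the cell cycle kinase Cdk6 and many collagens. miR-29a is known from work on haemopoietic stem cells and acute myeloid leukaemia, and miR-29b carries at its 3′ end a hexamer that was described in other cells as a nuclear import element.

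The mature sequences, taken from RefSeq on GRCm38.p6 and written 5′ to 3′ with the seed (bases 2 to 8) in capitals, show how little separates the members:
miR-29a: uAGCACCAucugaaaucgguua
miR-29b: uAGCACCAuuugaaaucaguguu
miR-29c: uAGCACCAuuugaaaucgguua
The seed AGCACCA was held at these positions by 3 of the 1679 mature mouse miRNAs of the RefSeq table, which are the 3 members. Counted from the 5′ end, miR-29a and miR-29c differ by the single substitution C10U and share the first 9 and the last 12 bases. miR-29c and miR-29b share the first 17 bases, then differ by G18A, U21G and A22U, and miR-29b is 23 bases long against 22 for each of the others. Cross-detection between the assays for miR-29a and miR-29c was not tested.

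The 3 members arise from 4 genes in 2 pairs of neighbours. Mature miR-29a lies at chr6:31062673-31062694 on the minus strand, in the hairpin Mir29a. Mir29b-1, 275 bases away on the same strand, holds mature miR-29b at chr6:31063025-31063047. The other copy of mature miR-29b lies at chr1:195037091-195037113 on the plus strand, in Mir29b-2, and 426 bases separate this hairpin from Mir29c, with mature miR-29c at chr1:195037600-195037621. The mature miR-29b of both hairpins is identical, so the miR-29b assay reads the sum of the pairs on chromosomes 6 and 1.

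The populations were checked against marker miRNAs. miR-223, the leading miRNA of the granulocytic lineage, had a whole cell CT of 24.0 in LSK cells, 19.5 in promyelocytes, 17.3 in myelocytes and then 16.4 in granulocytes. All 6 named members of a list of 9 stem and progenitor miRNAs had their lowest whole cell CT in LSK. The erythroid miR-486, the 1 named of 3 on its list, was undetermined in LSK and promyelocytes and stood at 31.5 in myelocytes and 31.7 in granulocytes. miR-150, an abundant miRNA of lymphocytes, was present throughout, with whole cell CTs of 25.1, 28.8, 25.6 and 25.8 in order of maturation. The promyelocyte sample of the cytoplasm and the granulocyte sample of the nucleus stood apart from the rest of their fractions. Over the 84 assays, named or not, that stayed under 30 at all 4 stages in the cytoplasm, the mean CT was 26.7 in promyelocytes. It was 25.4 in LSK, 25.6 in myelocytes and 25.5 in granulocytes. The last 3 assays of card B, whose change equals the scale behind the whole cell values, moved the same way, with a mean cytoplasmic CT of 26.2 in promyelocytes against 24.3, 24.5 and 22.9. These 3 can be among the 84, so they are not a separate check. In the nucleus, card A assays under 30 at all 4 stages had a mean CT of 25.2 in granulocytes. It was 26.6 in LSK, 26.5 in promyelocytes and 26.4 in myelocytes. Named assays under 30 numbered 57 in nuclear granulocytes, against 45, 40 and 37.

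miR-29a was the most abundant member by CT in every sample, miR-29c followed and miR-29b was the rarest, a description that compares different assays and assumes like amplification. In whole cell RNA miR-29a had a CT of 24.6 in LSK cells, 24.4 in promyelocytes, 23.5 in myelocytes and then 23.1 in granulocytes, between the 16th and the 20th lowest of the 269 named assays. For miR-29c the values were 27.2, 27.7, 26.3 and 25.3, and its place moved between the 35th and the 53rd. miR-29b stood at 32.4, 32.8, 30.8 and 31.6, between the 117th and the 146th. The lowest CT fell in granulocytes for miR-29a and miR-29c and in myelocytes for miR-29b. The ranges of the 3 members did not overlap in whole cell RNA. All 12 values of miR-29b lay above a CT of 30, where detection limits the readout, so its differences are less certain than those of the other members.

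In cytoplasmic RNA miR-29a had a CT of 23.0 in LSK cells, 25.1 in promyelocytes, 23.9 in myelocytes and then 23.4 in granulocytes. miR-29c stood at 25.5, 28.1, 26.5 and 25.8. miR-29b stood at 30.8, 32.1, 30.8 and 31.1. Each member had its highest cytoplasmic CT in promyelocytes, and its lowest in LSK, which for miR-29b was shared with myelocytes to the decimal given.

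Nuclear CTs were higher than cytoplasmic ones for every member at every stage. miR-29a had a nuclear CT of 27.3 in LSK cells, 28.4 in promyelocytes, 27.5 in myelocytes and then 25.7 in granulocytes. miR-29c stood at 29.5, 31.6, 30.7 and 27.9, so that it crossed the limit of 30 in the middle stages. miR-29b stood at 34.2, 35.5, 34.0 and 32.5. In the nucleus all 3 members had their highest CT in promyelocytes and their lowest in granulocytes, a fall of 2.71 cycles for miR-29a, 2.97 for miR-29b and 3.65 for miR-29c. The nuclear mean of card A assays under 30 at all stages fell as well, from 26.5 in promyelocytes to 25.2 in granulocytes.

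**Figure D1:**
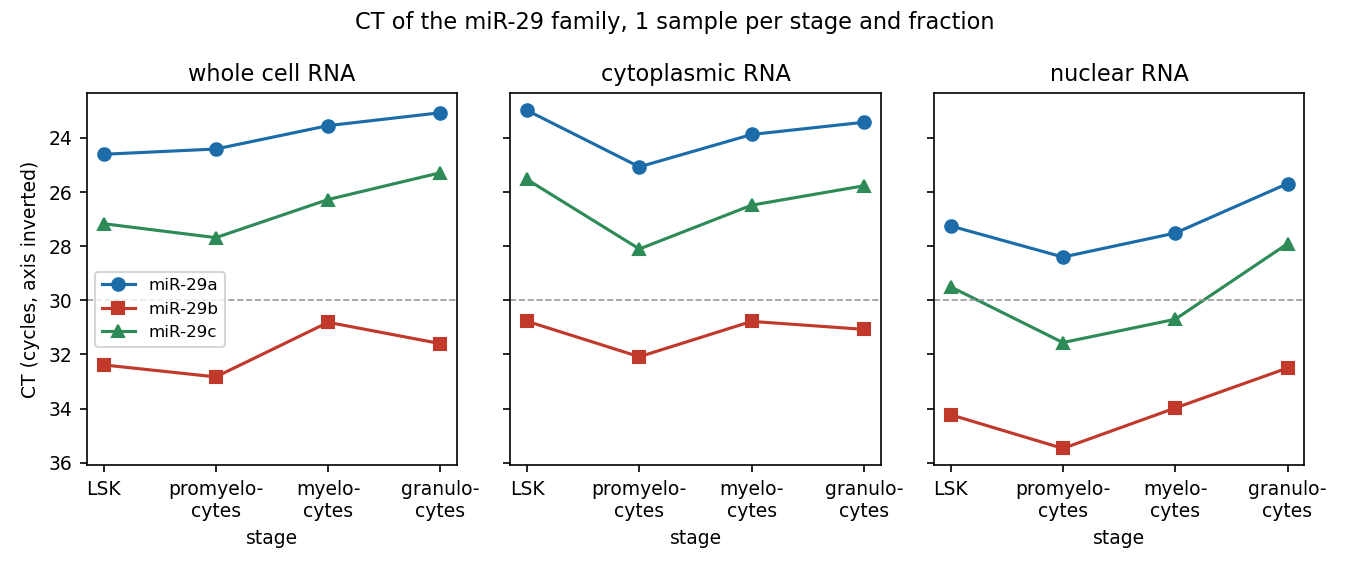
CT in cycles (axis inverted, so that more template is higher) against stage for miR-29a, miR-29b and miR-29c in whole cell, cytoplasmic and nuclear RNA; each point is 1 sample and the dashed line marks a CT of 30. The 3 members keep their order in all 12 samples, and in cytoplasmic and nuclear RNA each has its highest CT in promyelocytes.

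Changes between stages are given as log2 fold changes with both samples under a CT of 40. In whole cell RNA they were scaled by how the last 3 assays of card B changed on average, and in the fractions they were not scaled. The table does not name these 3 assays, so what the whole cell values are relative to is known only by its position on the card. From LSK to promyelocytes whole cell miR-29a changed by -0.05, miR-29b by -0.69 and miR-29c by -0.76. None of the 3 was 2-fold or more lower, where 18.8% of the 176 assays tested were, and the median over all tested was 0.31 against -0.69 for the members. In cytoplasmic RNA the changes were -2.09 for miR-29a, -1.31 for miR-29b and -2.57 for miR-29c. All 3 members passed the 2-fold limit, but so did 57.9% of 195 assays, whose median was -1.22. Nuclear miR-29a changed by -1.15, miR-29b by -1.25 and miR-29c by -2.06. Here again 3 of 3 were 2-fold or more lower, against 29.1% of 134 assays with a median of -0.05, and miR-29c had the 13th lowest change of all.

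The nuclear difference kept its sign under every scaling tried, from -2.35 to -2.06 for miR-29c. The cytoplasmic one involves the promyelocyte sample that stood apart, and its size moved with the scale. Scaled by the mean CT of assays under 30, cytoplasmic miR-29a changed by -0.87, miR-29b by -0.10 and miR-29c by -1.36. With the last 3 of card B as the scale the values were -0.24, 0.54 and -0.72, so miR-29b turned direction. miR-150 was lower in promyelocytes than in LSK, by -3.90 in whole cell, -5.46 in cytoplasmic and -2.48 in nuclear RNA, and rose again by 3.19, 4.29 and 2.56 from promyelocytes to myelocytes. The part of lymphoid RNA in the promyelocyte values of miR-29 was not tested. In sorted populations a lower share of cells carrying a miRNA and less of it per cell cannot be told apart.

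From promyelocytes to myelocytes whole cell miR-29a changed by 0.88, miR-29b by 2.03 and miR-29c by 1.42. The 2-fold limit was passed by miR-29b and miR-29c, 2 of 3 members, where 41.3% of 189 assays passed it with a median of 0.75. miR-29c fell under the limit, to 0.97 and 0.64, when the mean CT and card A means set the scale. In cytoplasmic RNA the changes were 1.20, 1.31 and 1.62, and 3 of 3 members passed, against 48.9% of 186 assays. In nuclear RNA they were 0.89, 1.49 and 0.86. There miR-29b was 1 of 3 past the limit, with 29.1% of 134 assays past it and a median over all of -0.11. The nuclear count depended on the scale. All 3 passed with the last 3 of card B (2.29, 2.90 and 2.27, 54.5% of all assays) and with the mean CT (1.25, 1.86 and 1.23, 39.6%). With card A means (0.80, 1.41 and 0.78, 26.9%) miR-29b alone did. All 3 cytoplasmic calls were lost with the mean CT (0.13, 0.24 and 0.55) and with card A means. In cytoplasmic RNA the direction did not hold under scaling by the last 3 assays of card B, which gave -0.48, -0.37 and -0.06, nor for miR-29a under scaling by the mean of card A assays, which gave -0.02.

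Between promyelocytes and granulocytes, the comparison the study drew for granulocytic maturation, whole cell miR-29a changed by 0.91, miR-29b by 0.80 and miR-29c by 1.97. Only miR-29c was 2-fold or more higher, 1 of 3 members, and 42.3% of 189 assays were, with a median of 0.69. The study's own list of log2 changes gives larger values for miR-29a and miR-29c at this step, and there miR-29a is past 2-fold as well. In cytoplasmic RNA the changes were 1.65, 1.01 and 2.34, and 3 of 3 members passed the limit against 52.1% of 192 assays with a median of 1.06. Nuclear miR-29a changed by 2.71, miR-29b by 2.97 and miR-29c by 3.65. All 3 passed, against 51.1% of 141 assays with a median again of 1.06, and their places from the top were 34th, 26th and 13th. In each fraction miR-29c had the highest value of the 3 on the signed log2 scale, an order that no scaling can alter, although its sign can turn in the cytoplasm.

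**Figure D2:**
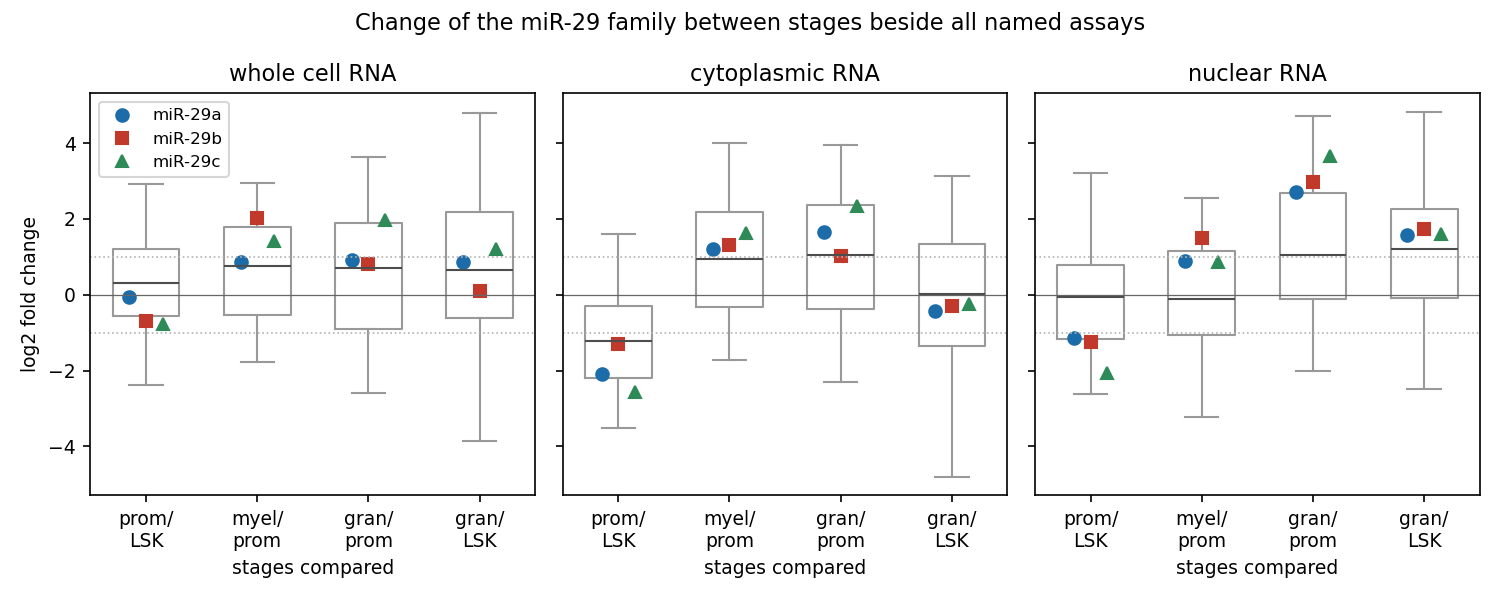
Log2 fold change between stages (prom, promyelocytes; myel, myelocytes; gran, granulocytes) in the 3 RNA fractions; boxes give the median and quartiles of all named assays tested, whiskers the 5th and 95th percentiles, symbols the 3 members, and dotted lines the 2-fold limit. In nuclear RNA the members lie at 2.71 to 3.65 between promyelocytes and granulocytes, above the median of 1.06.

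The size of the granulocyte values depended on the scale in a fraction-specific way. In whole cell RNA the change of miR-29a ran from 0.14 to 1.34, that of miR-29b from 0.03 to 1.23 and that of miR-29c from 1.20 to 2.40. In nuclear RNA the 3 members stayed past the 2-fold limit under all 4 scalings, the lowest values being 1.40, 1.66 and 2.34, while the share of all assays past it was 51.1% unscaled, 80.1% with the last 3 of card B, 41.1% with the mean CT and 28.4% with card A means. In cytoplasmic RNA the direction was not settled, and the mean CT left miR-29c alone past the limit (1.15) and card A means left no member past it. Scaling by the last 3 assays of card B gave -1.62, -2.25 and -0.93, and miR-29b was also below 0 with the mean of assays under 30 (-0.18) and with the mean of card A (-0.40). The same scaling by the last 3 assays moved the median of all cytoplasmic assays from 1.06 to -2.21.

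**Figure D3:**
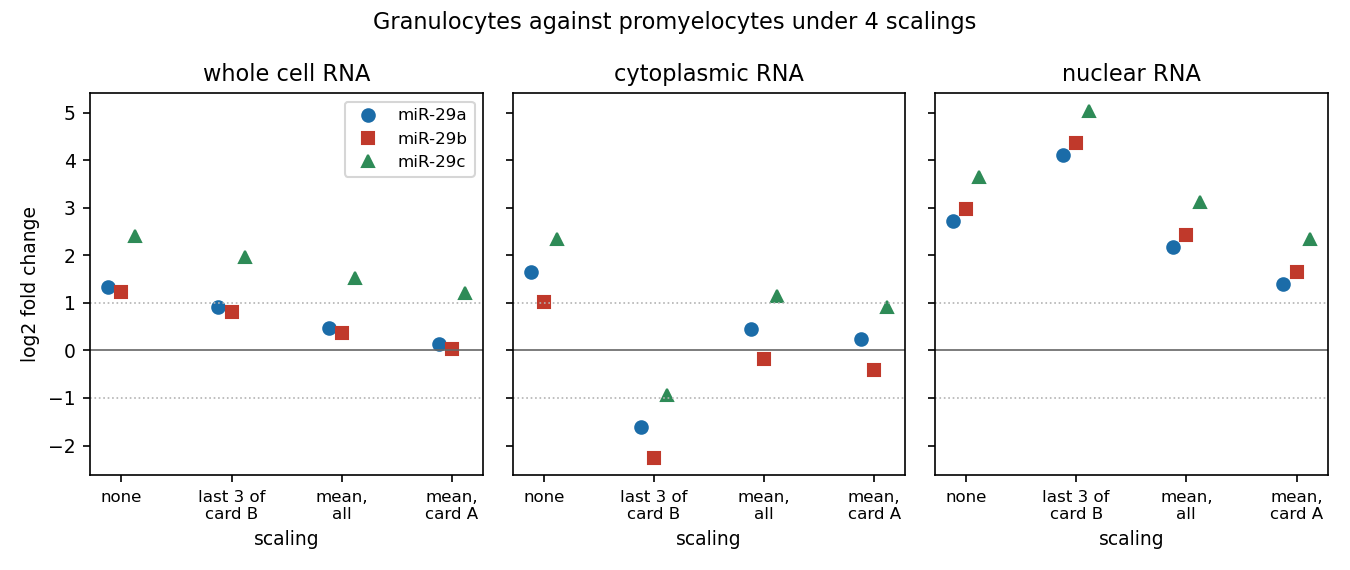
Log2 fold change of the 3 members from promyelocytes to granulocytes in the 3 fractions without scaling, scaled by the last 3 assays of card B, by the mean CT of all assays, named or not, under 30 in every stage, and by that of card A assays alone. All nuclear values lie above 1, while cytoplasmic values lie between -2.25 and 2.34.

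A comparison of granulocytes with LSK leaves out the promyelocyte samples. Whole cell miR-29a changed by 0.86, miR-29b by 0.11 and miR-29c by 1.21, so 1 of 3 members was 2-fold or more higher, with 42.8% of 187 assays. That call, miR-29c, was lost with the mean CT (0.48) and with card A means (0.21). Under the same scalings miR-29b changed by -0.62 and -0.89, and card A means gave -0.14 for miR-29a. In cytoplasmic RNA the changes were -0.44, -0.30 and -0.23, and 0 of 3 passed the limit against 31.7% of 199 assays. In nuclear RNA they were 1.56, 1.73 and 1.59, and 3 of 3 passed against 50.4% of 135 assays. The nuclear values stayed above 0 under the other scalings, but no member passed the limit with the mean CT, which gave 0.74, 0.90 and 0.76, or with card A means, which gave 0.15, 0.31 and 0.18. Cytoplasmic values lay below 0 under every scaling, within 0.44 of it except where the last 3 of card B set the scale and gave -1.85, -1.71 and -1.65.

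Between myelocytes and granulocytes the members parted. Whole cell miR-29a changed by 0.04 and miR-29c by 0.55, while miR-29b changed by -1.23, the 23rd lowest of 198 assays, or -0.79 without scaling. None of the 3 was 2-fold or more higher, where 13.6% of these assays were. Cytoplasmic values were 0.45, -0.29 and 0.72 for miR-29a, miR-29b and miR-29c, 0 of 3 past the limit against 14.7% of 190 assays, and the last 3 of card B turned miR-29a and miR-29c to -1.14 and -0.87. Nuclear values were 1.83, 1.48 and 2.79, and 3 of 3 passed against 66.7% of 141 assays. With the mean CT (31.9% of all) and with card A means (21.3%) only miR-29c stayed past the limit, while miR-29a fell to 0.92 and 0.60 and miR-29b to 0.57 and 0.25. For miR-29b the whole cell and nuclear samples moved in opposite directions at this step.

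Differences in CT between members within a sample do not depend on any scaling, since they share the sample and the card. The CT of miR-29c exceeded that of miR-29a by 2.57 cycles in LSK cells, 3.28 in promyelocytes, 2.73 in myelocytes and then 2.22 in granulocytes in whole cell RNA. Cytoplasmic RNA gave 2.55, 3.03, 2.61 and 2.35, and nuclear RNA gave 2.25, 3.16, 3.19 and 2.22. In each fraction the gap was narrowest in granulocytes, and it was wider in promyelocytes than in LSK. Over the 12 samples it ranged from 2.22 to 3.28 with a median of 2.59. The promyelocyte and granulocyte values did not overlap, 3.03 to 3.28 against 2.22 to 2.35, over the 3 fractions, which come from the same populations and are not replicates. miR-29c, from the pair on chromosome 1, thus lost ground to miR-29a, from chromosome 6, in promyelocytes and gained it by the granulocyte stage.

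The CT of miR-29b exceeded that of miR-29a by 7.78, 8.42, 7.27 and 8.53 cycles in whole cell RNA, by 7.79, 7.02, 6.91 and 7.65 in cytoplasmic RNA and by 6.98, 7.07, 6.46 and 6.82 in nuclear RNA. This gap was narrowest in myelocytes in each fraction. It followed no common order over the other stages. From miR-29c to miR-29b the gap ran from 3.28 to 6.32 cycles over the 12 samples, the widest span of the 3 pairs.

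**Figure D4:**
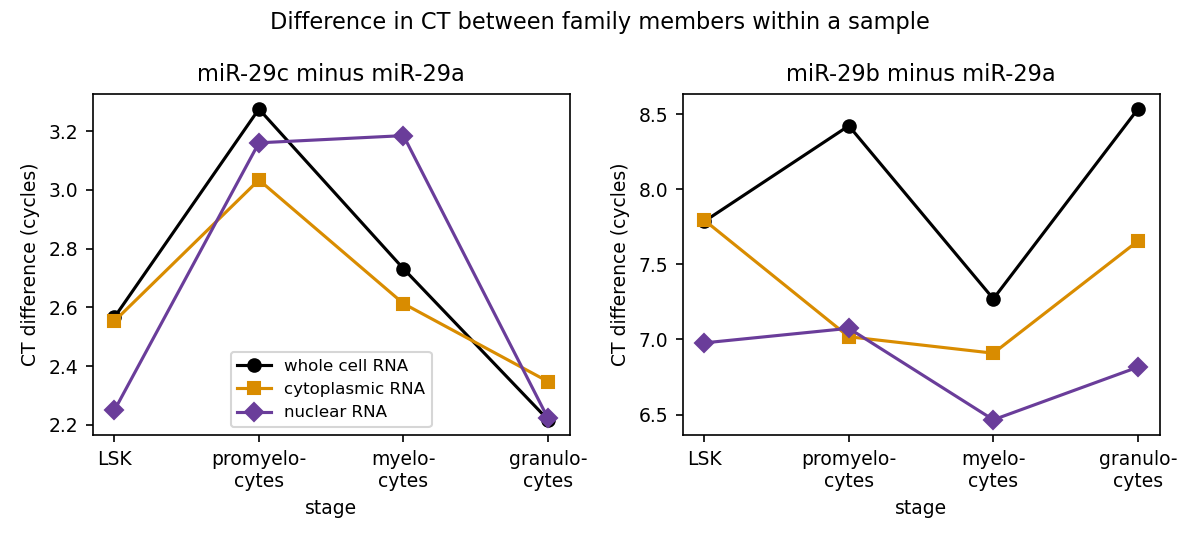
Difference in CT, in cycles, between miR-29c and miR-29a (left) and between miR-29b and miR-29a (right) within each sample, against stage, with 1 line per RNA fraction; the vertical axes do not start at 0. The gap from miR-29a to miR-29c is 2.22 to 2.35 cycles in granulocytes and 3.03 to 3.28 in promyelocytes.

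Passenger strands, the opposite arms of the same hairpins, were read by 2 further named assays. miR-29b* had whole cell CTs of 33.0, 33.3, 33.1 and 32.0 in order of maturation and cytoplasmic CTs of 32.6, 33.3, 31.9 and 31.7. Its nuclear well was undetermined in LSK and read 37.2, 35.2 and 33.7 in the later stages. miR-29c* was undetermined in the promyelocyte sample of all 3 fractions, and its whole cell CT was 33.9 in LSK, 36.4 in myelocytes and 32.8 in granulocytes. The promyelocyte sample had the highest CT of miR-29c* in whole cell and cytoplasmic RNA, as it had for miR-29c. In nuclear RNA miR-29c* read 39.9 in LSK and 35.2 in myelocytes and was undetermined in granulocytes, where miR-29c had its lowest CT. All these values are above 30 and limited by detection. An assay for miR-29a* was not named.

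The localization of the family was compared through the nuclear:cytoplasmic ratio, 2 raised to the cytoplasmic minus the nuclear CT and divided by 3. This form is the one of the deposited study, and the reason for its divisor is not given in the sources used here. miR-29a had ratios of 0.0173 in LSK cells, 0.0331 in promyelocytes, 0.0266 in myelocytes and then 0.0692 in granulocytes. miR-29c had 0.0213, 0.0303, 0.0179 and 0.0755. miR-29b had 0.0304, 0.0318, 0.0362 and 0.124. The highest ratio of each member was in granulocytes, and miR-29b was above both relatives in LSK, myelocytes and granulocytes. A ratio of 0.1 was passed by 0 of 3 members in LSK (15.7% of 153 assays), 0 of 3 in promyelocytes (26.8% of 157), 0 of 3 in myelocytes (17.9% of 151) and 1 of 3, miR-29b, in granulocytes (23.5% of 166). Without the divisor, the nuclear CT of miR-29b in granulocytes was 1.43 cycles above the cytoplasmic one.

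The rise in granulocytes was not particular to the family, since the median ratio of the assays tested was 0.0201 in LSK cells, 0.0516 in promyelocytes, 0.0257 in myelocytes and then 0.0611 in granulocytes. From myelocytes to granulocytes the ratio of miR-29a rose 2.60-fold, that of miR-29b 3.42-fold and that of miR-29c 4.21-fold. On the log2 scale these are 1.38, 1.77 and 2.07, beside a median of 1.31 over 137 assays. From promyelocytes to granulocytes the changes were 1.06, 1.96 and 1.32 on the log2 scale, beside a median of 0.18 over 138 assays, and miR-29b had the 9th highest. Both samples that stood apart enter here, cytoplasmic promyelocytes and nuclear granulocytes, and their part was not tested. The median ratio of the last 3 assays of card B fell between the same stages, from 16.2 to 0.61, and its part in these changes was not tested. In promyelocytes all 3 members lay below the median, at places 111, 113 and 117 of 157. Ratios were higher for rare assays as a class. In granulocytes the median was 0.0982 over 66 assays with a cytoplasmic CT of 30 or more and 0.0552 over 100 assays under 30, a split made after the values were seen. The first class, to which miR-29b belongs, leaves out 45 assays that were undetermined in the nucleus. The part of the high CT of miR-29b in its ratio was not tested.

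**Figure D5:**
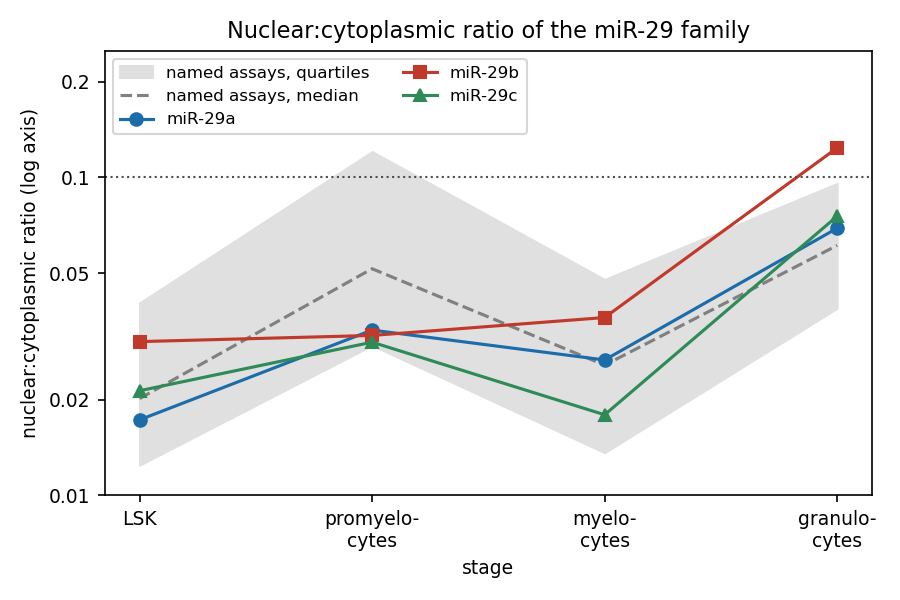
Nuclear:cytoplasmic ratio (log axis) against stage for the 3 members, with the median (dashed) and quartiles (shaded) of the named assays determined in both fractions and a dotted line at 0.1. miR-29b in granulocytes, at 0.124, is the 1 value of a member above the dotted line.

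The hexamer AGUGUU, which ends miR-29b, was searched on the printed strand of the 1679 mature sequences and found in 12 of them (0.715%), and in 2 of these it stood at the 3′ end. miR-29a and miR-29c do not hold it. Among the named assays 1 other held it, miR-142-3p, an abundant miRNA of blood cells, in which it begins at position 4. The ratios of miR-142-3p were 0.0271 in LSK cells, 0.0546 in promyelocytes, 0.0335 in myelocytes and then 0.142 in granulocytes. In granulocytes both assays with the hexamer were above 0.1, at places 25 and 31 of 166, where 23.5% of all assays were above it and the median of all had also risen. The ratio of miR-29b rests on CTs of 31.1 and 32.5, above the limit of 30. In the study's follow-up by individual assays, miR-142-3p showed no apparent nuclear enrichment in the myeloid populations. A part of the hexamer in these ratios was not tested. In the other stages neither was above 0.1.

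The study names miR-29 beside miRNAs of the miR-15/16, miR-26 and miR-30 families, and a chosen list of 10 (miR-15a, miR-15b, miR-16, miR-26a, miR-26b and miR-30a to miR-30e) was read as companions. It does not cover whole families, and miR-195, which the study names beside miR-15b and miR-16, was left out. From promyelocytes to granulocytes all 10 were 2-fold or more higher in whole cell RNA, beside 42.3% of all assays, with a median log2 change of 2.18 and a range of 1.06 to 2.84, where the miR-29 median was 0.91. With the mean CT or card A means as the scale 7 of 10 passed, beside 32.8% and 29.1% of all assays. In cytoplasmic RNA 10 of 10 passed, beside 52.1% of all assays, with a median of 2.55. This count fell to 7 with the mean CT (28.6% of all assays), to 6 with card A means (22.4%) and to 0 with the last 3 of card B (4.17%), where 9 of the 10 lay below 0. In nuclear RNA miR-15a was undetermined in promyelocytes, and the other 9 companions all passed, beside 51.1% of all assays, with a median of 2.83 against 2.97 for miR-29. With card A means 6 of the 9 did, beside 28.4% of all. From LSK to promyelocytes 0 of 10 were 2-fold or more lower in whole cell RNA (18.8% of all assays), 9 of 10 in cytoplasmic RNA (57.9%) and 4 of 9 in nuclear RNA (29.1%). With the mean CT, card A means and the last 3 of card B in turn, the cytoplasmic count fell to 3, 2 and 0 (24.1%, 18.5% and 10.8% of all assays) and the nuclear count rose to 6, 5 and 6 (35.1%, 31.3% and 34.3%). The list was taken from what the study says of these same samples and is not independent evidence of its direction.

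The assays nearest in pattern were found among the 110 named assays determined in all 12 samples, by the root mean square (RMS) difference of CT after each assay was centred on its own mean. Nearest to miR-29a were miR-30e at 0.254 cycles, miR-30a at 0.303 and miR-30c at 0.340. miR-29c came 4th for miR-29a, at 0.379 cycles, and miR-29a was in turn the nearest of all to miR-29c, before miR-26a at 0.397 and miR-322 at 0.453. Distances were larger for miR-29b. Its nearest were miR-700 at 0.522, miR-328 at 0.583 and miR-30e at 0.585, and miR-29a followed in 5th place. The median distance over the candidates was 1.04 cycles for miR-29a, 1.23 for miR-29b and 1.20 for miR-29c. In the 4 whole cell samples alone, with 165 candidates, miR-30a for miR-29a and miR-700 for miR-29b were again among the 3 nearest. miR-29a was then 14th for miR-29c, whose nearest was miR-30c at 0.0952 cycles, and miR-29c was 17th for miR-29a, whose nearest was miR-30d at 0.114. miR-700 was nearest to miR-29b, at 0.134.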

How the data were processed

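The authors called CT values with SDS 2.3 and RQ Manager from TaqMan Array Rodent MicroRNA cards v2.0 run on an ABI 7900HT, and deposited them without normalization, as a table of numbered assays. Undetermined wells are listed at 40. The deposited CT values carry no depth, and 1 well per assay gives no estimate of precision. All 12 columns were used, grouped by the labels.

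Assays were named by a unique match of their 8 fraction CTs to the study's supplementary CT list within 0.0005 cycles (246 assays), or of whole cell differences, put on the scale of its list of changes by a straight line fitted per pair of stages, to that list within 0.002 (23 assays), with 0 conflicts. Log2 changes are CT differences, less the change of the last 3 assays of card B in whole cell RNA. RNA input is given as 100 ng, while the study describes its fraction comparison as cell equivalent, so fraction ratios hold only within this convention. Calls used a 2-fold limit among named assays under 40 in both samples. Alternatives were other scalings, fold limits of 1.5 and 3, 1.9-fold per cycle and other ratio rules. The comparison of granulocytes with LSK, the alternatives for granulocytes against myelocytes and the scalings of the companion counts were added after seeing the data. The members and lists were chosen with earlier results of these data known. The miRNAs named are the members, their passenger strands, 3 nearest patterns each, holders of the miR-29b hexamer, companions and markers. Only the arithmetic of the fold and ratio calls was tested on simulated data, with CTs under 30 and changes set past the limit. Such a test cannot check the naming of assays, the choice of scaling or CTs above 30. Sequences, positions and gene order come from RefSeq tables (GRCm38.p6), in which all 3 members matched. Python 3.11.15, numpy 2.4.6, pandas 2.3.3 and matplotlib 3.10.9 were used.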

Additional observations from a re-analysis of the deposited data

Results flagged for a closer look

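miR-29b changed in opposite directions between fractions from myelocytes to granulocytes. The log2 change was -1.23 in whole cell RNA, -0.29 in cytoplasmic RNA and 1.48 in nuclear RNA, so that the nuclear sample differed by 2.70 from the whole cell one and by 1.77 from the cytoplasmic one. On 1 scale for both fractions these differences were 2.26 and 1.77 unscaled, 2.68 and 3.34 with the last 3 assays of card B, 1.80 and 0.99 with the mean CT and 1.46 and 0.74 with card A means. The nuclear change was 63rd highest of 141 assays, and the nuclear:cytoplasmic ratio rose by a median of 1.31 on the log2 scale over 137 assays. The differences were not tested, since each value rests on 1 sample per stage, and all 6 CTs lie between 30.8 and 34.0, above the limit of 30.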

How the results depend on the processing

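The count of members 2-fold or more higher in nuclear granulocytes than promyelocytes was 3 under every alternative run, where the share of all assays ran from 28.4% to 80.1% over the scalings. Of the 70 alternative values of the 13 counts, 44 kept within 1.5 times the main count. Shares of all assays under the same setting follow in parentheses. In whole cell RNA the count lower in promyelocytes than LSK went from 0 to 1 with the mean CT (22.7%) and to 2 at a 1.5-fold limit (25%); that higher in granulocytes than promyelocytes went from 1 to 3 without scaling (52.4%) and at 1.5-fold (51.9%); that higher in myelocytes went from 2 to 1 with the mean CT (32.3%), with card A means (25.9%) and at 3-fold (28.0%). In cytoplasmic RNA, with the last 3 assays of card B, the mean CT and card A means in turn, the count lower in promyelocytes fell from 3 to 0, 1 and 1 (10.8%, 24.1%, 18.5%), that higher in granulocytes from 3 to 0, 1 and 0 (4.17%, 28.6%, 22.4%), and that higher in myelocytes from 3 to 0, 0 and 0 (12.9%, 28.5%, 23.7%) and to 1 at 3-fold (39.2%). In nuclear RNA the count lower in promyelocytes fell from 3 to 1 at 3-fold (14.2%), and that higher in myelocytes went from 1 to 3 with the last 3 assays (54.5%), with the mean CT (39.6%) and at 1.5-fold (39.6%), and to 0 at 3-fold (14.9%). Members over the ratio limit went from 0 to 1 in myelocytes without the divisor (39.7%), and in granulocytes from 1 to 3 without it (81.9%) or at a limit of 0.05 (60.2%) and to 0 at 4 times the median (9.04%).

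Member changes past the 2-fold limit turned direction in cytoplasmic RNA alone. miR-29b was 0.54 (last 3 assays) and 0.15 (card A) from LSK to promyelocytes. From promyelocytes to granulocytes the last 3 assays gave -1.62 for miR-29a, -2.25 for miR-29b and -0.93 for miR-29c, and miR-29b was -0.18 with the mean CT and -0.40 with card A. From promyelocytes to myelocytes the last 3 assays gave -0.48, -0.37 and -0.056 in that order, and card A gave -0.023 for miR-29a. Of 270 alternative values of member changes, 11 were of this kind, and 6 more changed the sign of a value within the limit. These were cytoplasmic miR-29a (-1.14) and miR-29c (-0.87) from myelocytes to granulocytes with the last 3 assays and, in whole cell RNA, miR-29a from LSK to promyelocytes without scaling (0.19), and granulocytes against LSK for miR-29a with card A (-0.14) and miR-29b with the mean CT (-0.62) and card A (-0.89). With 1 sample per group no sample could be left out, and no paired analysis was possible because the stages compared have 1 sample each within a fraction. CTs above 30, all of miR-29b among them, are limited by detection.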
